A study of Mus musculus with 6 samples.

Results

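The clustered protocadherins are neuronal cell-surface cadherins encoded by 3 tandem gene arrays, Pcdha, Pcdhb and Pcdhg, that lie next to each other on mouse chromosome 18. Members were taken from the GENCODE M21 annotation as every protein-coding gene whose symbol starts with Pcdha, Pcdhb or Pcdhg followed by a number or by the letters a, b or c. The rule used no measured value, and it gave 57 of the 35865 genes with a matched transcript in the hippocampal tables, of which 21822 are protein coding. There were 14 Pcdha, 22 Pcdhb and 21 Pcdhg genes, and 5 of them are the C-type members Pcdhac1, Pcdhac2, Pcdhgc3, Pcdhgc4 and Pcdhgc5. A symbol of the same form, Pcdhgb8, is annotated as a polymorphic pseudogene and was left out; it measured 0.913 to 1.33 TPM, a transcript level scaled to the library total and divided by transcript length.

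The study sequenced poly(A) RNA from the hippocampus of female mice at 2 weeks of age, comparing 3 wild-type (WT) mice with 3 mice lacking Prmt9 (Prmt9 KO), on the B6J strain. PRMT9 is an arginine methyltransferase whose best known substrate is the splicing factor SF3B2. The knockout was whole-body: a floxed allele lost exon 5 in the germline after crossing to CMV-Cre, so the deletion was not limited to neurons. The controls were littermates matched for age and sex. Mice are named WT1 to WT3 and KO1 to KO3 by the replicate number in their labels.

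Each alpha or gamma gene is one large variable exon with its own promoter, spliced to constant exons that all genes of that array share, whereas each beta gene is a single exon. A neuron is thought to transcribe a small, largely random set of the alternate alpha, beta and gamma genes, while C-type genes are expressed more broadly and are regulated differently. The proteins form recognition units that bind only matching combinations on other membranes, and they are known for self-avoidance of dendrites and axons, for dendrite arborization and, in the gamma array, for neuronal survival.

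The targeted gene was checked first. Prmt9 measured 11.8, 15.2 and 15.0 TPM in the WT mice and 3.93, 4.61 and 4.67 TPM in the KO mice. The groups did not overlap, and the log2 fold change was -1.71 with a standard error (SE) of 0.10 and an adjusted p of 0.0327 in edgeR, above the 0.01 used for calls below. The libraries held 194098391 to 286771677 estimated counts. WT1 and KO1 stood apart from the other 4 libraries: Mbp, a myelin gene of oligodendrocytes, measured 1431 TPM in WT1 and 698 TPM in KO1, against 4764 to 6772 TPM in the others. Summed excitatory neuron markers were likewise 1730 and 1829 in these mice against 2779 to 2963, mostly through Camk2a (776 and 816 against 1640 to 1704), while Neurod6 of the same list was not lower (123 and 148 against 114 to 132). Further, 37.4% of transcripts had no count in WT1 against 22.8% to 24.8% elsewhere. The member tests, the array totals and the gene lists are therefore given with and without the mice numbered 1; the tests of single transcripts and of full-length shares were run on all 6 mice only.

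On GRCm38, all members lie on the forward strand of chromosome 18. The Pcdha genes span 36930184 to 37187661 (257478 bases), the Pcdhb genes 37264938 to 37524479 (259542 bases) and the Pcdhg genes 37661793 to 37841873 (180081 bases). All 22 Pcdhb genes had a single exon in their most abundant transcript, of 2588 to 8695 bases. All 14 Pcdha genes had a transcript of 4 exons in which a variable exon of 2346 to 3028 bases was followed by 3 constant exons of 2860 bases in all. All 21 Pcdhg genes had such a transcript too, with variable exons of 2542 to 2961 bases and 3 constant exons of 2116 to 2119 bases. GENCODE gives the symbol Pcdha11 to a pair of genes. The upstream one, ENSMUSG00000007440, starts 117 bases from the gene that RefSeq calls Pcdha10 and carries that name below, and the downstream one, ENSMUSG00000102206, starts 146 bases from RefSeq's Pcdha11.

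How far a read can tell members apart followed from this structure. Of the 31-base words in each member's most abundant transcript, the share found in no transcript of another gene had a median of 88.2% among Pcdhb genes (77.5% to 100%), of 37.4% among Pcdha genes and of 52.1% among Pcdhg genes. Pcdha4 had the lowest share, 116 of 5333 words (2.18%), because an annotated fusion model, Gm42416, runs through its variable exon. That model and a pair of others, Gm37013 and Gm37388, join Pcdha to Pcdhg exons; the first measured at most 0.0773 TPM in any mouse and the other pair were listed at 0 in all 6. Counts of single alpha and gamma members therefore carry an uncertainty from shared reads that counts of beta members carry less of.

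Summed over the transcripts of each gene, the C-type genes of the gamma array were the most abundant members. Pcdhgc3, which is expressed widely and not only in neurons, measured 64.1, 69.8 and 70.2 TPM in WT1 to WT3 and 64.1, 69.1 and 73.1 TPM in KO1 to KO3. Pcdhgc4, the isoform known for its role in neuronal survival, measured 109, 58.1 and 60.8 TPM in WT and 148, 64.5 and 74.8 TPM in KO. Pcdhgc5, a late-onset brain isoform, measured 43.5, 93.4 and 95.7 TPM in WT and 52.3, 81.3 and 80.4 TPM in KO. Within each genotype the mouse numbered 1 was the highest for Pcdhgc4 and the lowest for Pcdhgc5. The order of these 3 genes was therefore not fixed: in WT1 and KO1 Pcdhgc4 led and Pcdhgc5 was last, while in the other 4 mice Pcdhgc5 led, and the WT means of 68.0, 76.0 and 77.5 TPM differed by less than the spread between mice.

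The C-type genes of the alpha array were lower. Pcdhac2, the alpha isoform used by serotonergic neurons to space their axons, measured 17.5, 19.3 and 18.5 TPM in WT and 24.4, 17.6 and 15.6 TPM in KO. Pcdhac1 measured 3.03, 2.52 and 2.51 TPM in WT and 3.51, 2.48 and 2.31 TPM in KO, within the range of the alternate alpha genes. Markers of serotonergic cell bodies were low: the summed level of Tph2, Slc6a4 and Fev was 1.19 to 1.41 TPM in every mouse. Most of it was Tph2, at 1.05 to 1.31 TPM. Slc6a4 was at most 0.339 TPM, and Fev was listed at 0 in WT1 and KO1. By percentile among protein-coding genes, the WT mean of Pcdhgc5 stood at 89.4, Pcdhac2 at 65.1 and Pcdhac1 at 41.6.

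Most of the Pcdhgc4 level came from a short annotated transcript. ENSMUST00000195239 is 2272 bases long: its first exon of 153 bases lies inside the variable exon, 322 bases after the start of the full-length transcript, and splices to the same 2119 bases of constant exons. Only 151 of its 2242 31-base words are found in Pcdhgc4 alone, and 28 of those in no other transcript of that gene. It measured 97.2, 46.6 and 48.9 TPM in WT and 130, 53.4 and 63.6 TPM in KO, which was 80.2% to 89.1% of the gene's level. The full-length transcript ENSMUST00000066140, which holds the whole variable exon, measured 11.7, 10.7 and 11.2 TPM in WT and 17.2, 10.5 and 10.5 TPM in KO. Counted by its full-length transcript, Pcdhgc4 was thus close to the level of the higher alternate gamma genes, and not to that of Pcdhgc3 or Pcdhgc5. Whether the short transcript's reads came from that transcript or from constant exons of other gamma transcripts was not tested.

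The other gamma C-type genes depended less on such models. Full-length Pcdhgc3 made up 93.7% ± 6.81 (SD) of its gene in WT and 95.6% ± 3.37 in KO. Full-length Pcdhgc5 measured 25.7, 65.1 and 68.1 TPM in WT and 32.6, 56.3 and 55.2 TPM in KO, and was 66.6% ± 6.58 and 66.8% ± 3.85 of its gene. A 593-base transcript of Pcdhgc5, ENSMUST00000193941, supplied 25.2% to 36.6% of the gene's level. The full-length share of Pcdhgc4 was 15.9% ± 4.45 in WT and 13.96% ± 2.32 in KO. None of the 3 shares differed between genotypes beyond the spread between mice, with exact two-sided permutation p of 0.9 for Pcdhgc3, 0.6 for Pcdhgc4 and 1 for Pcdhgc5 and a Benjamini-Hochberg p of 1 for each. With 3 mice against 3, the smallest p this test can give is 0.1.

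**Figure D1:**
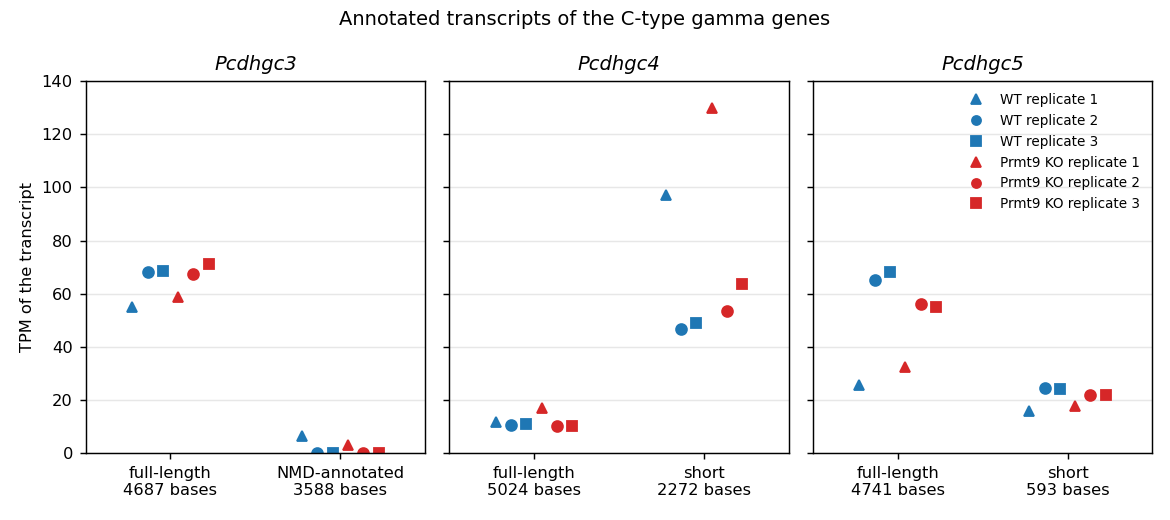
TPM of the full-length transcript and of the next most relevant annotated transcript of Pcdhgc3, Pcdhgc4 and Pcdhgc5, 1 point per mouse (blue, WT; red, Prmt9 KO; triangles, the mice numbered 1). For Pcdhgc4 the 2272-base transcript lies above the full-length one in all 6 mice, and WT1 and KO1 are the highest for it and the lowest for full-length Pcdhgc5.

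At the gene level, the alternate members and the beta genes were lower than the gamma C-type genes. For Pcdhgc4 this rested on the short transcript: its full-length transcript had a WT mean of 11.2 TPM, below Pcdhga11 at 14.3. Over the 12 alternate Pcdha genes, mean WT levels ran from 0.499 to 5.81 TPM with a median of 3.15. The 22 Pcdhb genes ran from 0.0495 to 6.44 TPM with a median of 2.18, and the 18 alternate Pcdhg genes from 3.05 to 14.3 TPM with a median of 6.02. In all, 51 of the 57 members reached at least 1 TPM in every mouse. The highest Pcdhb gene stood at percentile 50.0 among protein-coding genes, so even the leading beta isoform was at the middle of the distribution.

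In the alpha array, Pcdha12 was the highest alternate gene, with 6.95, 5.26 and 5.23 TPM in WT and 9.76, 5.79 and 3.97 TPM in KO. Pcdha4 followed with 4.42, 5.67 and 5.48 TPM in WT and 6.62, 5.18 and 3.995 TPM in KO. The lowest were Pcdha8, at 0.403, 0.563 and 0.531 TPM in WT and 0.311, 0.665 and 0.515 TPM in KO, and Pcdha1, at 1.502, 1.26 and 1.54 TPM in WT and 2.28, 1.56 and 1.81 TPM in KO. Pcdha8 was below 1 TPM in all 6 mice, the only alpha gene to be so.

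In the beta array, Pcdhb9 led with 6.74, 6.23 and 6.36 TPM in WT and 8.29, 6.61 and 6.004 TPM in KO. Pcdhb7 measured 4.09, 4.81 and 4.86 TPM in WT and 5.58, 5.61 and 5.05 TPM in KO, and Pcdhb17 measured 3.67, 4.90 and 4.63 TPM in WT and 4.12, 4.16 and 4.003 TPM in KO. Pcdhb21 was second lowest, at 0.730, 1.28 and 1.15 TPM in WT and 1.05, 1.21 and 0.984 TPM in KO. Pcdhb1, the first gene of the array and one that shares no 31-base word with another gene, was the lowest member of all, at 0.0405 to 0.194 TPM.

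In the gamma array the lowest genes were Pcdhgb4, at 1.93, 3.95 and 3.27 TPM in WT and 2.63, 3.04 and 3.22 TPM in KO, and Pcdhgb5, at 2.56, 3.78 and 3.49 TPM in WT and 2.23, 3.25 and 3.59 TPM in KO. Pcdhga11 and Pcdhga3, named after their values were seen, were the highest alternate gamma genes. Pcdhga11 measured 11.1, 14.8 and 17.04 TPM in WT and 19.7, 15.4 and 16.2 TPM in KO.

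Level had little relation to position among the alternate genes and the beta genes. The C-type genes, which lie at the downstream ends of Pcdha and Pcdhg, were left out here. Spearman's rho between genomic order and mean WT level was 0.05 over the 12 alternate Pcdha genes, 0.17 over the 22 Pcdhb genes and 0.11 over the 18 alternate Pcdhg genes. In single mice rho ran from -0.20 to 0.12, from 0.04 to 0.26 and from -0.01 to 0.22 in the same 3 sets. The ranking of the 57 members was shared between mice, with Spearman's rho of 0.874 to 0.980 over the 15 pairs of mice, and the lowest values were all in pairs with 1 mouse numbered 1. These correlations are across genes, which are not independent replicates, and alpha and gamma genes share reads within their array.

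**Figure D2:**
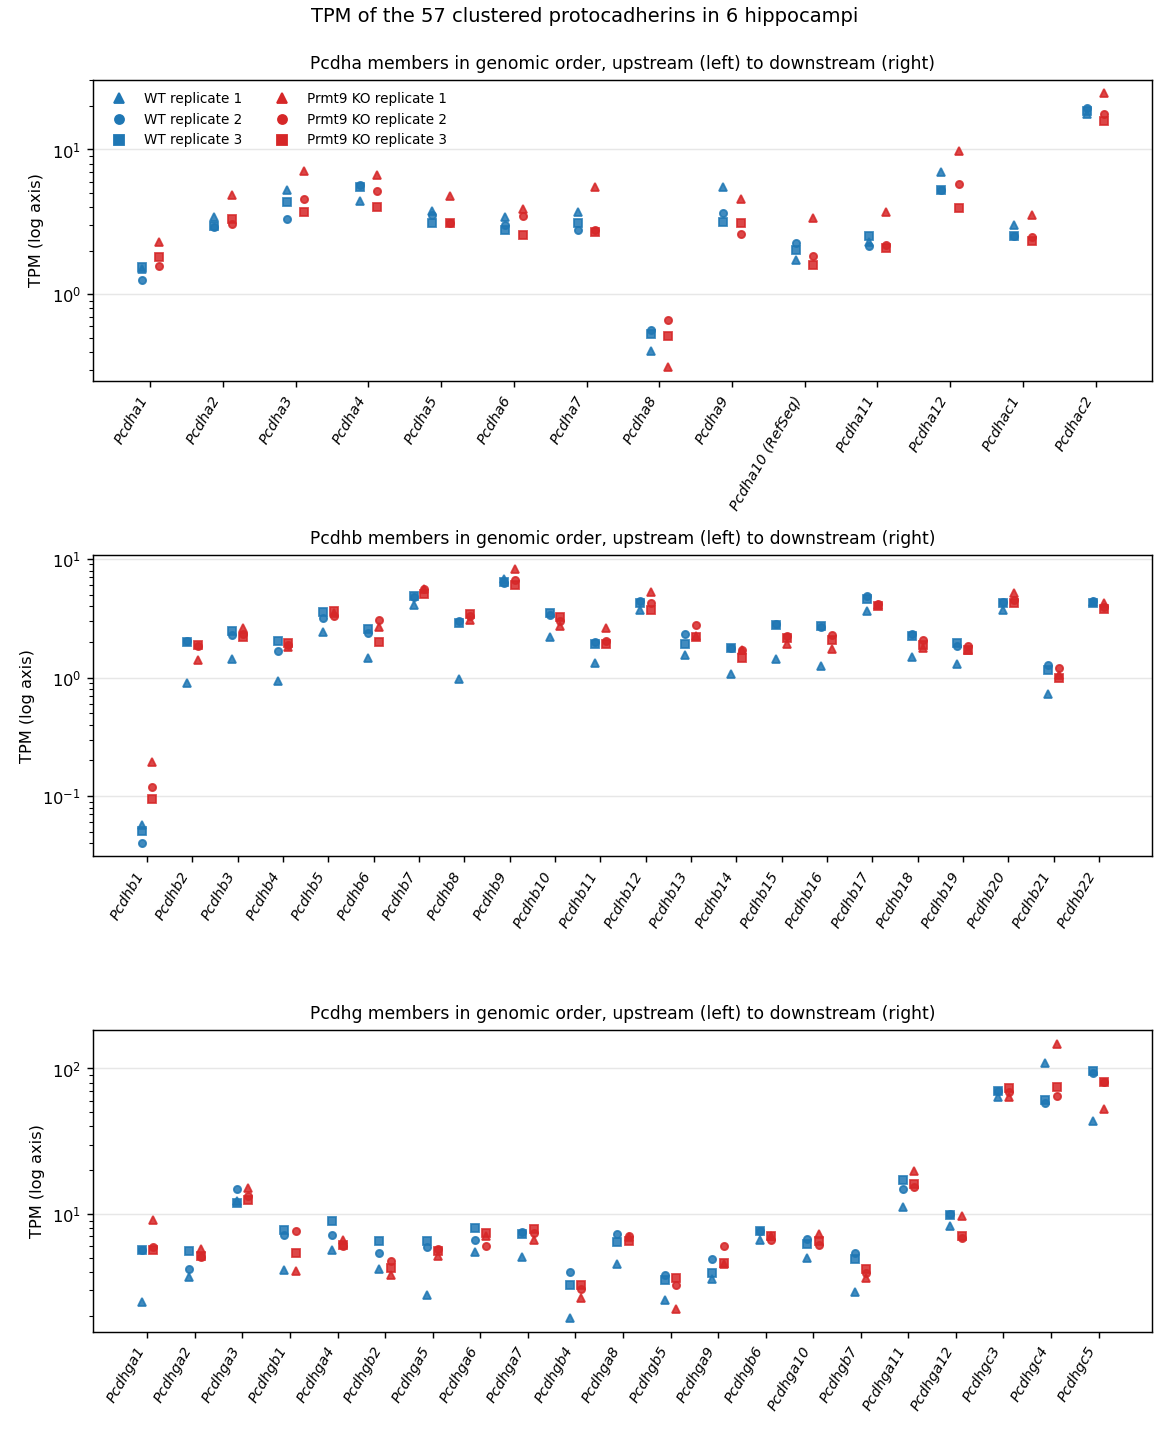
TPM (log axis) of each of the 57 members in genomic order, 1 panel per array, 1 point per mouse (blue, WT; red, Prmt9 KO; triangles, the mice numbered 1). The C-type genes at the downstream end of Pcdhg reach 43.5 to 148 TPM, which for Pcdhgc4 includes its short transcript. Pcdhb1 lies lowest at 0.0405 to 0.194 TPM, and no slope runs along the alternate genes.

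The comparison of WT with Prmt9 KO asked whether loss of the enzyme changed the level of any member. All 57 members had enough counts to be tested, and none was called at an adjusted p below 0.01 with a fold change above 1.5 in edgeR's quasi-likelihood test, where 0% of the 20315 genes tested were called. DESeq2 likewise called 0 members. At an unadjusted p below 0.05, 2 members passed, against 1.24% of all genes tested: Pcdhb1 was higher in KO and Pcdhgb2 lower. In bulk tissue, fewer cells expressing a gene and less RNA per cell cannot be told apart.

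The fitted log2 fold changes were small. They were positive in 33 members and negative in 24, 55 of 57 lay within 0.5 of zero, and their median was 0.03 beside -0.01 for all genes tested. The medians were 0.08 for Pcdha, 0.04 for Pcdhb and -0.03 for Pcdhg. SEs ran from 0.10 to 0.46 with a median of 0.19, and the widest belonged to Pcdhb1 and Pcdhgc4. WT and KO values did not overlap in 3 of 57 members (5.26%), against 7.01% of all genes tested. Those were Pcdhb1, higher in KO, and Pcdhb17 and Pcdhgb2, lower in KO.

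Pcdhb1 rested on few reads. Its estimated counts were 18, 13 and 15 in WT and 62, 45 and 32 in KO, and the log2 fold change was 1.38 with an SE of 0.46 (edgeR unadjusted p 0.024, adjusted p 0.9999). All 3 KO mice were above all 3 WT mice, at levels under 0.2 TPM in each.

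Pcdhgb2, an alternate gamma gene, measured 4.21, 5.38 and 6.49 TPM in WT and 3.78, 4.71 and 4.25 TPM in KO. These TPM values overlapped, since KO2 and KO3 were above WT1, whereas the normalised counts did not. The log2 fold change was -0.40 with an SE of 0.12 (edgeR unadjusted p 0.018, adjusted p 0.9999). All 6 Pcdhgb genes had a negative log2 fold change, with a median of -0.20, while 8 of the 12 Pcdhga genes, which are interspersed with them, had a positive one. Without WT1 and KO1 the 6 Pcdhgb genes were again all negative, with a median of -0.20, but so were 8 of the 12 Pcdhga genes, with a median of -0.02. This split was noticed after the values were seen and was not tested. Summed over the 6 genes, Pcdhgb measured 22.4, 33.3 and 33.6 TPM in WT and 23.4, 29.1 and 27.6 TPM in KO, so the groups overlapped.

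The other extremes of each array did not pass the test. Pcdha1 had the highest log2 fold change of the alpha genes, 0.31 with an SE of 0.25, and Pcdha9 the lowest, -0.38 with an SE of 0.39. Pcdha9 measured 5.53, 3.65 and 3.17 TPM in WT and 4.55, 2.60 and 3.11 TPM in KO. Pcdhga1, the first gamma gene, had the highest value of its array, 0.58 with an SE of 0.32, from 2.49, 5.65 and 5.63 TPM in WT and 9.14, 5.93 and 5.66 TPM in KO. WT1 was lowest and KO1 highest for this gene, while the other 4 mice lay between 5.63 and 5.93 TPM. Pcdhb15 had the lowest value of the beta genes, -0.20 with an SE of 0.20, from 1.43, 2.86 and 2.79 TPM in WT and 1.92, 2.25 and 2.15 TPM in KO.

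The C-type genes did not pass the test in either direction. Their log2 fold changes were -0.06 (SE 0.10) for Pcdhgc3, 0.20 (SE 0.45) for Pcdhgc4, -0.17 (SE 0.30) for Pcdhgc5, -0.05 (SE 0.28) for Pcdhac1 and -0.01 (SE 0.22) for Pcdhac2. The SE was smallest for Pcdhgc3, the only one of the 5 whose level was alike in all 6 mice.

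**Figure D3:**
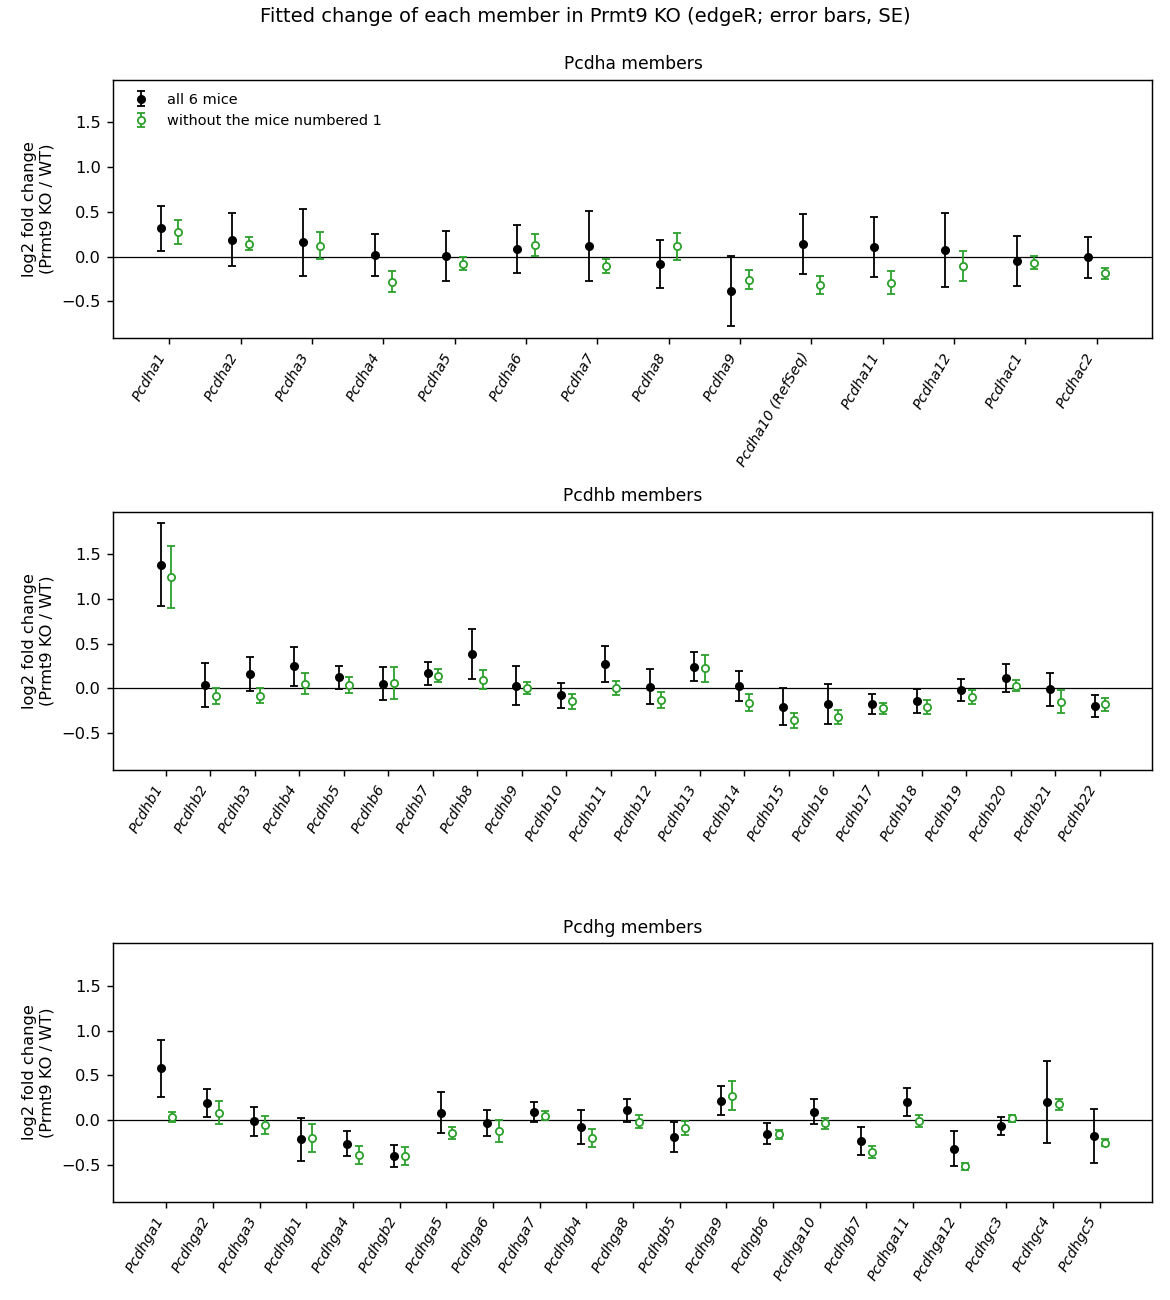
Fitted log2 fold change (Prmt9 KO over WT, edgeR) of each member in genomic order, with SE bars, for all 6 mice (black) and without the mice numbered 1 (green, open). Pcdhb1 at 1.38 is the only member above 0.58, and the 6 Pcdhgb genes all lie below zero.

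Array totals were compared next, because sums depend less than single genes on how reads shared by members of an array are split. Summed Pcdha levels were 62.8, 58.2 and 57.8 TPM in WT and 84.6, 56.9 and 50.4 TPM in KO, a log2 difference of 0.07 (exact permutation p 1). Summed Pcdhb levels were 46.8, 64.3 and 64.1 TPM in WT and 65.4, 63.9 and 59.6 TPM in KO, a log2 difference of 0.12 (exact permutation p 0.7). Summed Pcdhg levels were 309, 350.1 and 357 TPM in WT and 391, 335 and 347 TPM in KO, a log2 difference of 0.08 (exact permutation p 0.6). In each array the groups overlapped, and WT1 or KO1 was at an end of the range. Without these mice all 3 differences turned negative, at -0.11 for Pcdha, -0.06 for Pcdhb and -0.05 for Pcdhg, where the exact permutation test of 2 mice against 2 cannot go below 0.333. In WT, Pcdhg made up 74.1% ± 0.391 (SD) of the summed level, Pcdha 13.1% ± 1.64 and Pcdhb 12.7% ± 1.33. These shares include the short Pcdhgc4 and Pcdhgc5 transcripts. Over transcripts with a first exon of at least 2000 bases, Pcdhg held 188, 276 and 282 of 291, 394 and 399 TPM in WT1 to WT3. That was a smaller share in each WT mouse, and smallest in WT1.

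The makeup of the repertoire was compared by 3 measures. C-type genes held 56.7%, 51.4% and 51.7% of the summed level in WT and 54.0%, 51.5% and 53.9% in KO (exact permutation p 0.9). Counted only over transcripts with a first exon of at least 2000 bases, which leaves out the short Pcdhgc4 and Pcdhgc5 models, the C-type share was 42.0% ± 1.80 in WT and 40.7% ± 3.75 in KO. The effective number of members, the exponential of the Shannon entropy of their TPM shares, was 20.4, 24.4 and 24.1 in WT and 21.7, 24.5 and 22.7 in KO (exact permutation p 1). The number of members at 1 TPM or more was 51, 55 and 55 in WT and 55, 55 and 54 in KO (exact permutation p 1). After adjustment over these 6 values every p was 1, and a p of this kind does not show that the genotypes are equal.

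**Figure D4:**
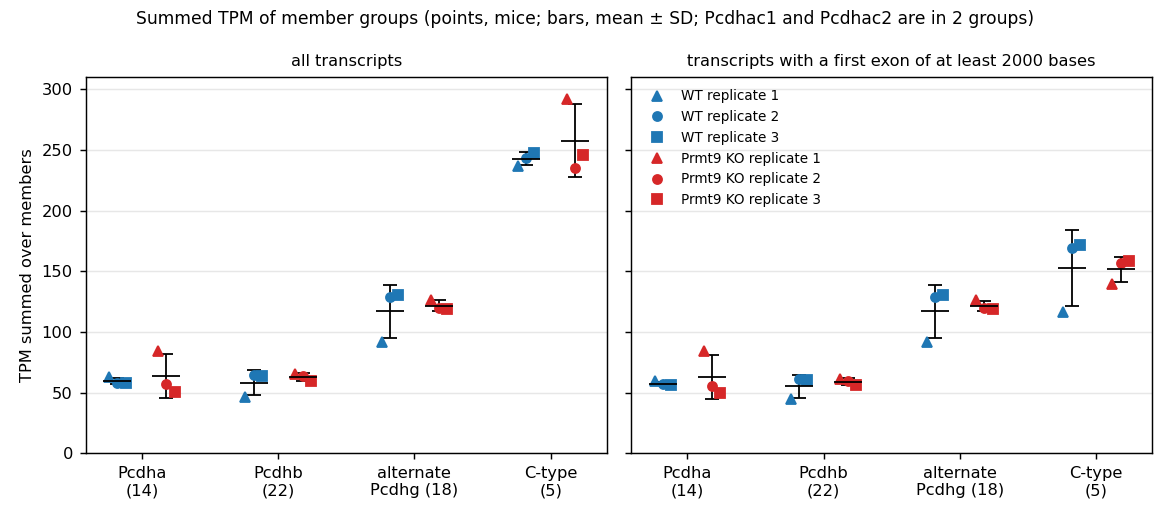
TPM summed over Pcdha, Pcdhb, alternate Pcdhg and C-type members in each mouse, over all transcripts (left) and over transcripts with a first exon of at least 2000 bases (right); bars show mean ± SD of 3 mice. WT and KO overlap in every group, and the C-type mean in WT falls from 243 to 152 TPM when short transcripts are left out.

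The mice numbered 1 stood apart in the Pcdha genes in both genotypes. On the scale of normalised counts, WT1 was the highest WT mouse in 11 of 14 Pcdha genes and KO1 the highest KO mouse in 13 of 14. Both held at once in 11 Pcdha genes (78.6%), in 6 of 22 Pcdhb genes (27.3%) and in 4 of 21 Pcdhg genes (19.0%), against 35.7% of all genes tested. Alpha genes share reads through their constant exons, as gamma genes do, so these are not independent genes and the shares are a description only. The median log2 ratio of WT1 to the other WT mice was 0.60 in Pcdha, -0.18 in Pcdhb and -0.13 in Pcdhg, and that of KO1 to the other KO mice was 0.76, 0.13 and 0.18. Pcdha8 went the other way, at -0.06 in WT1 and -0.77 in KO1.

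The gene-level values of neighbouring gamma C-type genes went opposite ways in these mice. In normalised counts, Pcdhgc4 had log2 ratios of 1.12 in WT1 and 1.17 in KO1, and Pcdhgc5 had -0.96 and -0.61, while Pcdhgc3 had 0.20 and -0.02. In TPM, Pcdhgc3 was lowest in WT1 among WT mice (64.1 against 69.8 and 70.2) and in KO1 among KO mice (64.1 against 69.1 and 73.1). The Pcdhgc4 excess lay mostly in the short transcript: the full-length one measured 11.7 TPM in WT1 against 10.7 and 11.2 in the other WT mice, and 17.2 TPM in KO1 against 10.5 in both other KO mice. These moved together with the lower Mbp and excitatory neuron markers of the same mice. Astrocyte markers also summed lower, at 983 and 1114 TPM in WT1 and KO1 against 1464 to 1578 in the others, mostly through Slc1a2 (290 and 311 against 585 to 647). Of the same list, Aqp4 (58.6 and 66.0 against 54.2 to 72.4) and Aldh1l1 (37.9 and 44.5 against 41.4 to 44.6) did not separate these mice. Meninges markers summed higher, at 217 and 258 TPM against 135 to 177. Endothelial and mural markers did not move as one: Cldn5 was 107 and 89.2 TPM against 37.1 to 45.2, while Flt1 was 7.19 and 7.89 TPM against 14.8 to 20.5. Choroid plexus markers were 7261 TPM in WT1 but 865 in KO1, against 610 to 3338 in the others, so they did not separate these mice. The part of cell makeup in the member levels was not tested.

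**Figure D5:**
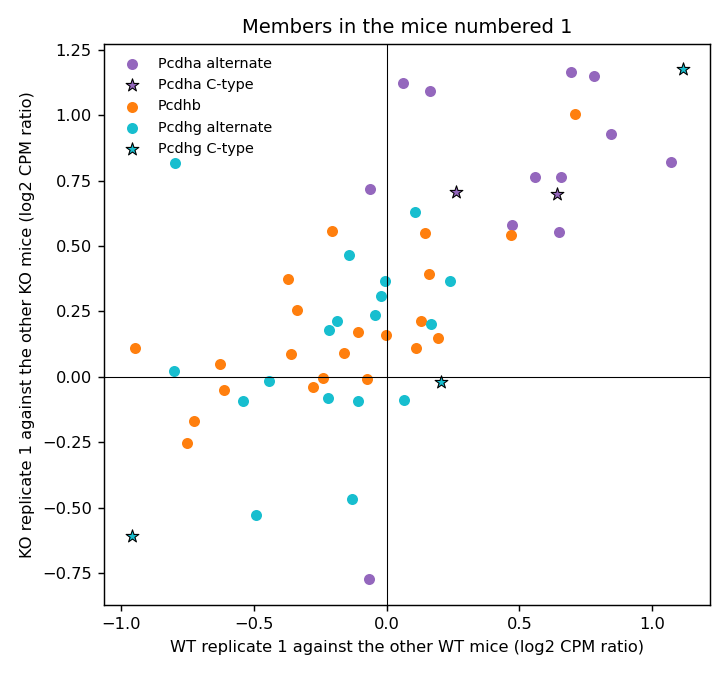
Log2 ratio of normalised counts of WT1 to the other WT mice (horizontal) and of KO1 to the other KO mice (vertical) for each member, coloured by array, stars marking C-type genes. Pcdha genes gather at the upper right, Pcdhgc4 lies farthest in that direction at 1.12 and 1.17, and Pcdhgc5 lies at the lower left at -0.96 and -0.61.

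With the replicate number as a block, so that each KO mouse was set against the WT mouse of the same number, 8 members had an unadjusted p below 0.05, against 5.75% of all genes tested. Pcdha1, Pcdhb1, Pcdhga9 and Pcdhgc4 were higher in KO, and Pcdha9, Pcdhb22, Pcdhgb2 and Pcdhga12 lower. None was called, and the lowest adjusted p among members in edgeR was 0.790.

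Without WT1 and KO1, 14 members had an unadjusted p below 0.05, against 16.4% of all genes tested. Of these, 12 were lower in KO and only Pcdhb1 and Pcdhgc4 were higher. Among the 20315 genes of the main fit, 1744 were lower and 1591 higher at this threshold. The lower members were Pcdha10, Pcdhac2, Pcdhb15 to Pcdhb18, Pcdhga4, Pcdhgb2, Pcdhgb6, Pcdhgb7, Pcdhga12 and Pcdhgc5. The largest of these falls was that of Pcdhga12, with 10.01 and 9.87 TPM in WT2 and WT3 and 6.86 and 7.06 TPM in KO2 and KO3. Its log2 fold change was -0.51 with an SE of 0.04, and the adjusted p in edgeR was 0.0589. With all 6 mice the change was -0.32 with an SE of 0.19, and KO1 at 9.68 TPM lay above WT1 at 8.27 TPM. In a fit of 2 mice against 2, where 16.4% of all genes passed the unadjusted threshold, so small an SE is not read as precision. Again none was called. The medians became -0.09 for Pcdha, -0.08 for Pcdhb and -0.09 for Pcdhg, beside 0.00 for all genes tested, so the direction of the alpha and beta medians turned.

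Single transcripts gave the same result as the genes. Of the 87 member transcripts, 83 were tested and 0 were called in edgeR, where 0% of the 75661 transcripts tested were called, and DESeq2 also called 0. At an unadjusted p below 0.05 there were 2, against 1.61% of all transcripts: the only Pcdhb1 transcript and ENSMUST00000195112 of Pcdhgb2, at a log2 fold change of -0.39 with an SE of 0.14. The short Pcdhgc4 transcript had 0.24 with an SE of 0.59, and the full-length one 0.12 with an SE of 0.33.

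Genes that act on the clusters were read in the same fit. Promoter choice in the arrays depends on CTCF and cohesin, which loop a promoter to a distal enhancer, and silencing involves DNA methylation and SMCHD1. None of 24 such regulators had an unadjusted p below 0.05 in edgeR or in DESeq2, and none was called. In edgeR 1.24% of all genes tested passed and 0% were called, so none among 24 genes is near that share. The log2 fold changes of the regulators ran from -0.15 to 0.42 with a median of 0.02. Ctcf measured 46.2, 52.1 and 50.3 TPM in WT and 45.2, 48.0 and 52.0 TPM in KO. Smchd1 measured 15.2, 15.3 and 15.9 TPM in WT and 15.9, 15.5 and 15.5 TPM in KO, the narrowest range of these examples. The cohesin subunit Rad21 measured 26.8, 42.1 and 42.1 TPM in WT and 34.5, 41.1 and 42.8 TPM in KO, with both mice numbered 1 lowest. Dnmt3b, the methyltransferase that marks alternate promoters early in development, stood at 0.462 to 1.34 TPM.

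Partners of the protocadherin cytoplasmic domains and the proteases that cleave them made up a second list of 22 genes. It held focal adhesion kinases (Ptk2, Ptk2b), members of the WAVE complex that drives actin branching (Cyfip1, Cyfip2, Nckap1, Wasf1 to Wasf3, Abi1, Abi2, Brk1), and proteases such as Adam10. None had an unadjusted p below 0.05 in edgeR or in DESeq2 and none was called, beside the same 1.24% and 0% of all genes in edgeR. The log2 fold changes ran from -0.38 to 0.13 with a median of -0.04. The 13 non-clustered protocadherins, relatives encoded outside the 3 arrays and counted with Cdhr1, also had none. Their log2 fold changes ran from -0.31 to 0.35 with a median of 0.02. In lists this short, none passing is near the share of all genes.

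Without the mice numbered 1, 3 of 24 regulators (Dnmt1, Tet2 and Tet3) and 4 of 13 non-clustered protocadherins (Pcdh1, Pcdh8, Pcdh12 and Pcdh15) had an unadjusted p below 0.05, beside the same 16.4% of all genes. With the replicate block the counts were 1 and 3, beside 5.75%. Summed over the 13 genes, the non-clustered protocadherins measured 240, 412 and 405 TPM in WT and 309, 377 and 370.5 TPM in KO, lowest in both mice numbered 1, whereas the summed Pcdha level was highest in those mice.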

How the data were processed

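Poly(A) RNA of 6 hippocampi was prepared with a stranded TruSeq kit and sequenced as paired-end reads. The authors deposited kallisto estimated counts and TPM per transcript for each mouse, and a gene table of TPM (kallisto 0.46.0 and STAR 2.7.1a per the submitters' processing notes; mm10/GRCm38). TPM is relative within a library. Here, transcripts were matched to GENCODE M21 (116622 of 118783), and estimated counts were summed per gene and rounded; member sums equalled the gene table within 0.001 TPM for all 57 genes. Genes passing filterByExpr were fitted with edgeR 4.0.16 (TMM, quasi-likelihood test, R 4.3.3) with genotype as the only term and Benjamini-Hochberg adjustment. Calls were made below 0.01 after adjustment, for changes of over 1.5 times. Each edgeR SE was derived as the absolute log2 fold change divided by the square root of the test's F statistic. DESeq2 1.42.0 and limma 3.58.1 (log2(TPM + 1) and log2(TPM + 0.1)) were alternatives. Single values per mouse were compared by two-sided exact permutation tests over every way to group the mice. Spearman's rho was computed with SciPy 1.17.1. The scripts were tested on simulated data.

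Members and gene lists were chosen with earlier results of these data known. Members named with values were the C-type genes, the 3 highest and 2 lowest WT means of each array, those with an unadjusted p below 0.05 and those with the extreme fold changes of each array; others are marked in the text or are counted there. Same-numbered mice deviated together from their group means (Pearson's r 0.78, 0.71 and 0.67 for numbers 1, 2 and 3, across genes), so the replicate block was used beside the unblocked fit. The numbers come from the labels, which name no litter or batch, and WT3 with KO2 had r of 0.72, so numbers 2 and 3 were not told apart. Intervals from depth were not computed, since estimated counts share reads among members. Sequences of the members were not used here, and some genes of the lists are not reported here.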

Additional observations from a re-analysis of the deposited data

How the results depend on the processing

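No member was called under any alternative tried, and the replicate block changed no call. The number of members with an unadjusted p below 0.05 was 1 with limma at either pseudocount, 8 with the replicate block, 9 with a term for the mice numbered 1, 14 without both of those mice, and 0 to 5 leaving out 1 mouse (0 without WT3, 5 without WT1, 1 without WT2 or KO3). Of all genes tested in edgeR, 1.24% passed in the main fit, 5.75% with the block and 16.4% without both mice. The share is not given for the other settings, whose counts are not read as results about the members or the lists. Regulators numbered 1, 1 and 3 under the block, that term and the loss of both mice, partners and proteases 1, 1 and 3, and non-clustered protocadherins 3, 3 and 4 (0 to 2 leaving out 1 mouse). Members without overlap were 6 with TPM and 5 to 17 leaving out 1 mouse, which lowers the number of values that must separate. The share of all genes is not given for these settings, so these counts are not read as a result about the members. Without both mice the medians were -0.0864 (all members) and -0.0841 (Pcdhb); leaving out 1 mouse gave -0.0542 to 0.1442 and -0.0281 to 0.145, and limma gave 0.0371 and 0.0433 for Pcdhg. Prmt9 passed the call threshold with DESeq2 (-1.7116), the term (-1.7068) and without both mice (-1.6745), and reached -1.7307 leaving out 1 mouse.

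Array totals turned direction without both mice (Pcdha -0.1149, Pcdhb -0.0569, Pcdhg -0.0536) and in CPM for Pcdha (-0.0103) and Pcdhg (-0.0161); leaving out 1 mouse gave -0.1535 to 0.2203 for Pcdha and -0.0291 to 0.1991 for Pcdhb and up to 0.1232 for Pcdhg. The C-type share difference was 0.0188 points with members at 1 TPM or more, 1.1509 without both mice and -1.0429 to 1.5778 leaving out 1. The effective number difference was -0.0987, -0.6049 and -1.2451 to 0.7506, and the difference in members at 1 TPM was -0.5 without both mice and -0.3333 to 1.6667. The Spearman correlation of level and position in KO was -0.0979 (alternate Pcdha) and 0.0695 (Pcdhb). Transcripts with a long first exon were chosen as an alternative after seeing the data.

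Of 20 named members, 8 never changed sign and 240 of 280 values kept it. Turned values were, for Pcdha4, -0.0003 (limma, 0.1), -0.0332 (block), -0.0252 (term) and -0.2793 (without both mice); Pcdha8, 0.1141 (without both); Pcdha12, -0.0001 (block) and -0.1013 (without both); Pcdhgc3, 0.0235 (without both). With limma at 1 and 0.1 they were 0.0202 and 0.0226 for Pcdhac1, 0.0321 and 0.0326 for Pcdhac2, 0.0275 and 0.0624 for Pcdhb21 (-0.1459 without both mice), 0.0005 and 0.014 for Pcdhgb4, and 0.0141 and 0.0143 for Pcdhgc3. Leaving out 1 mouse gave -0.2581 to 0.2122 (Pcdha4), -0.3263 to 0.1354 (Pcdha8), -0.7046 to 0.0748 (Pcdha9), -0.4095 to 0.3901 (Pcdha12), -0.3133 to 0.2048 (Pcdhac1), -0.2783 to 0.1474 (Pcdhac2), -0.1658 to 0.212 (Pcdhb9), -0.1144 to 0.0951 (Pcdhb21), -0.2265 to 0.1017 (Pcdhgb4), -0.0924 to 0.019 (Pcdhgc3), -0.2945 to 0.6835 (Pcdhgc4) and -0.4221 to 0.0059 (Pcdhgc5). The causes were not tested. The SEs, with a median of 0.19 on the log2 scale, limit what 3 mice a group can show.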
